A study of Drosophila melanogaster with 2 samples.

Results

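The translation factors and aminoacyl-tRNA synthetases of *Drosophila melanogaster* were taken as the protein-coding genes of the dm6 annotation whose symbol begins with eIF, eEF or eRF, or is an amino acid code (or GluPro) followed by RS, with or without -m. The rule found 87 of the 13945 protein-coding genes on the 6 chromosome arms. They were 44 initiation factor genes, 8 elongation factor genes, 2 release factor genes, 18 cytosolic synthetase genes and 15 mitochondrial synthetase genes, the last marked by -m in the symbol. The measurement was chromatin immunoprecipitation with sequencing (ChIP-seq) of the zinc finger protein CG31388, which was fused to green fluorescent protein (GFP) at its C-terminal end in a stably transgenic line and precipitated with an antibody against GFP. The single group held 2 libraries, labelled biological replicates 2 and 4, from whole embryos of both sexes aged 0 to 16 hours, so that all embryonic cell types and stages were mixed. There was no untagged or untreated group, and the comparisons are between the member genes and all protein-coding genes.

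Translation factors carry the ribosome through a round of protein synthesis: initiation factors bring the mRNA cap, the initiator tRNA and the ribosomal subunits together, elongation factors deliver aminoacyl-tRNAs and move the ribosome, and release factors end synthesis at a stop codon. Aminoacyl-tRNA synthetases join each amino acid to its tRNA, with separate enzymes for many amino acids in cytosol and mitochondria. Translation is needed in nearly every cell, but the rule takes every gene with such a symbol, paralogs included. Where each gene is expressed was not measured here.

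CG31388 had a reproducible peak at the promoters of 13 of the 87 genes. The strongest lay at eIF6 and eIF4EHP, followed by the synthetase genes IleRS, GluProRS and SerRS, then eIF3c, ThrRS, eIF1, eRF1, eEF1gamma, AspRS, eRF3 and eIF3h. Both release factor genes and 5 of 18 cytosolic synthetase genes were on this list, as were 5 of 44 initiation factor genes and 1 of 8 elongation factor genes. None of the 15 mitochondrial synthetase genes was. The 13 genes are 14.9% of the members, with an exact binomial 95% interval of 8.20 to 24.2%, beside 10.1% of all protein-coding genes, which lies inside that interval.

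The authors set a list of 1872 peaks by irreproducible discovery rate (IDR), a measure of reproducibility. A promoter was counted as occupied when the summit of one of these peaks lay within 500 bp of any transcription start site (TSS) of the gene. The signal given below is the authors' enrichment value for a region in the list called on both libraries together. This pooled list has 28750 candidate regions, which the authors describe as peaks and background. Its 1872 strongest regions are the IDR peaks, so that a signal of 53.8 divides peaks from other candidates. A reproducible peak here is a region on the IDR list, not necessarily one found in each replicate. Among 1411 occupied protein-coding genes, the strongest summit lay in a region of replicate 2 only for 3 genes and of replicate 4 only for 15. Ranks count from 1 at the strongest region. Intervals on shares cover counting error only, and neighbouring genes that share a peak are not independent.

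The sequences under the summits were mostly low in GC and held runs made of A and T alone. In the 50 bp to each side of the summit the median longest run was 10 bp at the 13 occupied members, against 8 bp at the 39 members with a candidate that is not a peak. Over all protein-coding promoters the medians were much the same, 11 bp at IDR peaks and 8 bp at other candidates. The 61 bp centred on the summit are given for eIF4EHP and 3 synthetase genes as examples, for eRF3 as the summit lowest in GC and for eIF3h and eIF1 as the pair highest in GC. They were read 5′ to 3′ on the strand of the named gene from the NCBI reference genome of dm6, and the longest run of A and T is in capitals.
eIF4EHP (3R:24109172-24109232, minus strand): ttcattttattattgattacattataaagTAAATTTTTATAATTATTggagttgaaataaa
IleRS (3L:22288451-22288511, plus strand): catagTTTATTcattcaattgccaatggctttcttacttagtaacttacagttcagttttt
GluProRS (3R:23958547-23958607, minus strand): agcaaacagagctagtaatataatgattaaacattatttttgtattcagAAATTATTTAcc
ThrRS (2L:12103523-12103583, plus strand): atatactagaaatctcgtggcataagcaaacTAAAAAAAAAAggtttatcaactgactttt
eRF3 (2L:12434319-12434379, plus strand): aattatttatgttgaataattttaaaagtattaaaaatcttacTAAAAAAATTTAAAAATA
eIF3h (2L:5052462-5052522, minus strand): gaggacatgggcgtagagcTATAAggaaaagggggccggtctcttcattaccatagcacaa
eIF1 (3L:3223002-3223062, plus strand): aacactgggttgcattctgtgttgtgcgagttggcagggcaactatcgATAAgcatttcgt
The GC content of these windows was 13.1% at eIF4EHP, 29.5% at IleRS, 23.0% at GluProRS, 27.9% at ThrRS and 8.20% at eRF3, against 50.8% at eIF3h and 47.5% at eIF1.

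Among the initiation factors, eIF6 keeps the ribosomal subunits apart and takes part in making the large one. Its peak (dm6 2R:23850313-23850506) had a pooled signal of 261 and rank 59, with signals of 92.0 in replicate 2 and 165 in replicate 4, at ranks 68 and 56. The signal scales of the 2 replicate lists differ, and each list has 30000 regions, so replicates are compared by rank. Both replicates placed the eIF6 region within their strongest 100 regions. The summit lay 95 bp upstream of the only eIF6 TSS, in an exon of the antisense RNA gene asRNA:CR45928 and an intron of ytr. A TSS of asRNA:CR45928 was nearer to this summit than that of eIF6.

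The peak of eIF4EHP, which encodes a cap-binding homologue of eIF4E that represses translation of caudal mRNA in the embryo, was at 3R:24109004-24109399. Its pooled signal was 202, at rank 107, and it ranked 75 in replicate 2, with a signal of 86.9, and 136 in replicate 4, with a signal of 116. The summit was intergenic, 242 bp upstream of the eIF4EHP TSS, and within 500 bp of the TSS of CG18428 on the opposite strand. The gene spans 3R:24063077-24108960, and another IDR peak lay inside it, 9836 bp downstream of the TSS at 3R:24098926-24099321, with a signal of 85.7.

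eIF3 is the largest initiation complex and holds the small subunit and the mRNA entry path. Of its 16 genes, 8 had a candidate region and eIF3c and eIF3h had a peak. The peak of eIF3c, a subunit of the complex's core, was at 2R:17665370-17665765 with a pooled signal of 107 and rank 473. It ranked 438 in replicate 2, with a signal of 42.3, and 550 in replicate 4, with a signal of 64.3. Its summit lay 110 bp upstream of eIF3c and was shared with CCHa1-R, a neuropeptide receptor gene.

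The eIF3h peak (2L:5052294-5052689) was the weakest of the 13 and lay just above the peak threshold. Its signal was 55.0, at rank 1799, with 22.0 and rank 1640 in replicate 2 and 29.5 and rank 2736 in replicate 4. It was also the only one of the 13 with the summit downstream of the nearest TSS, by 288 bp from an internal TSS of eIF3h and in an intron of that gene, and the window also holds a TSS of senju.

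eIF1, which guards the choice of the start codon, had 2 IDR peaks in its promoter window. The stronger (3L:3222834-3223229) had a pooled signal of 96.3 and rank 610, with a signal of 76.4 and rank 377 in replicate 4, but no region of replicate 2 contained its summit. It lay 309 bp upstream of eIF1 and was shared with the ribosomal protein gene RpL28 and with snoRNA:Or-CD11a. The weaker (3L:3223066-3223461), 77 bp upstream of eIF1, had a pooled signal of 60.3. This one was found in both libraries, at rank 1382 with a signal of 24.2 in replicate 2 and rank 1885 with a signal of 35.6 in replicate 4.

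eIF2 and eIF2B had candidate regions without a peak. eIF2, which carries the initiator tRNA, had candidates at 2 of 3 genes, and its exchange factor eIF2B at 4 of 5 genes with signals of at most 30.0. Of the 7 genes of the eIF4E cap-binding family, eIF4EHP had a peak and 1 other gene had a candidate, while eIF4E3, eIF4E4, eIF4E5, eIF4E6 and eIF4E7 had no candidate. The strongest initiation factor candidates below the threshold were eIF5B, which joins the subunits, with a signal of 53.5 at rank 1882, and the cap-complex helicase gene eIF4A with 53.4 at rank 1889. They fell just short, and their replicates were ordered in opposite ways: eIF5B ranked 3120 in replicate 2 and 1561 in replicate 4, and eIF4A ranked 1364 in replicate 2 and 3034 in replicate 4. Besides the 5 eIF4E genes, the initiation factor genes with no candidate were eIF1A, eIF2alpha, eIF2Bgamma, eIF3b, eIF3d2, eIF3e, eIF3f2, eIF3g1, eIF3g2, eIF3k, eIF3l, eIF4B, eIF4G2, eIF4H1 and eIF4H2.

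**Figure D1:**
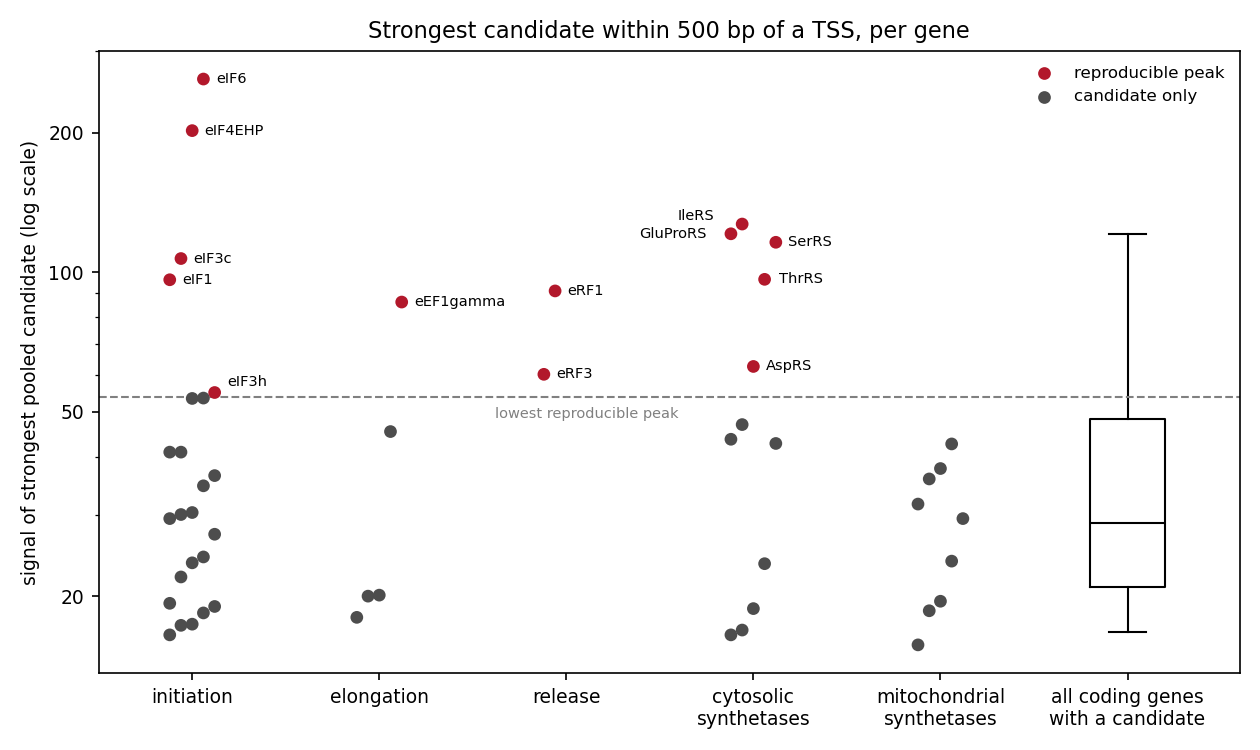
Signal of the strongest pooled candidate region within 500 bp of a TSS (log scale) for each member with a candidate, by group, and as a box for all protein-coding genes with a candidate (box at the quartiles with the median as a line, whiskers at the 5th and 95th percentiles). Red points are reproducible peaks and the dashed line marks the lowest of them, at a signal of 53.8; eIF6 at 261 and eIF4EHP at 202 stand highest, and the 9 mitochondrial synthetase genes with a candidate all lie at or below 42.6.

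The elongation factors had 1 peak, at eEF1gamma, whose product is part of the complex that recharges eEF1A with GTP. Its region (3R:29219902-29220297) had a pooled signal of 86.2 and rank 759, with a signal of 31.7 and rank 785 in replicate 2 and 54.1 and rank 840 in replicate 4. The ranks were close in the 3 lists. The summit lay 72 bp upstream of eEF1gamma, and no other gene had a TSS within 500 bp of it.

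The 2 genes for eEF1A itself, which brings aminoacyl-tRNAs to the ribosome, had no peak. eEF1alpha1 reached a signal of 45.3, at rank 2481, ranked 2709 in replicate 2 and 2909 in replicate 4, and had 5 candidates, some of them overlapping, in its promoter windows. eEF1alpha2 reached 20.0, and the translocase gene eEF2 reached 20.1. eEF5 had a candidate at 18.0, while eEF1beta, eEF1delta and eEFSec had none.

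Both release factor genes were occupied. eRF1, which recognises the stop codons, had a peak at 3L:20348066-20348461 with a pooled signal of 91.1 and rank 675. It ranked 465 in replicate 2, with a signal of 41.2, and 1110 in replicate 4, with a signal of 46.8. Its summit lay 91 bp upstream and was shared with Rbbp5, which encodes a subunit of histone H3 lysine 4 methyltransferase complexes.

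eRF3, the GTPase that works with eRF1, had a weaker peak at 2L:12434151-12434546, with a pooled signal of 60.2 and rank 1550. It ranked 1257 in replicate 2, with a signal of 25.3, and 1886 in replicate 4, with a signal of 35.6. The summit lay 103 bp upstream of eRF3 in an intron of the splicing factor gene SC35. With 2 genes the share of 100% has an exact interval of 15.8 to 100%.

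The cytosolic synthetases had the highest occupied share among the groups of more than 2 genes, 27.8% (5 of 18), with an exact interval of 9.69 to 53.5% that still contains the 10.1% of all protein-coding genes. With each peak given only to the gene with the nearest TSS, the share was 11.1% (2 of 18), below the 12.5% of elongation factors (1 of 8). The IleRS peak, at 3L:22288283-22288678, had a pooled signal of 127 and rank 326, with 43.9 and rank 407 in replicate 2 and 83.6 and rank 302 in replicate 4. Its summit lay 184 bp upstream of IleRS, between that gene and Hem, a gene of the actin-regulating SCAR complex. The gene of the bifunctional enzyme GluProRS had its peak at 3R:23958379-23958774, with a signal of 121 and rank 356. It ranked 311 in replicate 2, with a signal of 48.8, and 475 in replicate 4, with a signal of 69.4, and its summit, 186 bp upstream, was shared with AP-1sigma, a clathrin adaptor gene.

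The SerRS peak (2L:3037242-3037637) had a pooled signal of 116 and rank 393, with 43.5 and rank 417 in replicate 2 and 71.4 and rank 449 in replicate 4. Its summit lay 37 bp upstream of a SerRS TSS, in the 5′ UTR of the neighbour CG17260. At ThrRS the peak (2L:12103355-12103750) had a signal of 96.5 and rank 606, with 32.1 and rank 779 in replicate 2 and 60.8 and rank 627 in replicate 4. Its summit was 198 bp upstream and shared with Patsas. These 4 synthetase peaks lay within the strongest 800 regions of each replicate.

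AspRS had the weakest peak of the synthetases, at 2R:12879872-12880267, with a pooled signal of 62.6 and rank 1448. The replicates placed it at rank 2582, with a signal of 17.3, in replicate 2 and at rank 1116, with 46.7, in replicate 4. Its summit lay 214 bp upstream of an internal TSS of AspRS, inside introns of both AspRS and Nmda1.

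Of the other 13 cytosolic synthetase genes, 7 had a candidate below the threshold. ValRS was highest, with a signal of 46.9 at rank 2335, ranked 2070 in replicate 2 and 4874 in replicate 4. GlyRS, which serves mitochondria too, had 43.6 at rank 2658, ranked 8773 in replicate 2 and 2653 in replicate 4. CysRS, GlnRS, LeuRS, LysRS, TrpRS and TyrRS had no candidate. The genes of the cytosolic phenylalanine enzyme are named alpha-PheRS and beta-PheRS and so fall outside the naming rule. Neither had a peak, and beta-PheRS had a candidate at 35.1.

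The mitochondrial synthetases had candidates at 9 of 15 genes and no peak, and 0 of 15 has an exact upper limit of 21.8%, so that a share equal to that of all protein-coding genes cannot be told from 0 with this many genes. The strongest were CysRS-m, with a signal of 42.6 at rank 2774, ranked 2010 in replicate 2 and 6592 in replicate 4, and ProRS-m, with 37.7 at rank 3480, ranked 5054 in replicate 2 and 4780 in replicate 4. AlaRS-m, GluRS-m, IleRS-m, SerRS-m, TyrRS-m and ValRS-m had no candidate. The difference between cytosolic and mitochondrial enzymes, 5 of 18 against 0 of 15, was not tested, since genes are not replicates. The groups follow the symbols, and no -m symbol was found for Gln, Gly, His, Lys or Thr. Genes without -m can serve mitochondria too, as GlyRS does, so the groups need not match the compartments. ThrRS, without an -m counterpart, is among the 5 occupied genes.

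**Figure D2:**
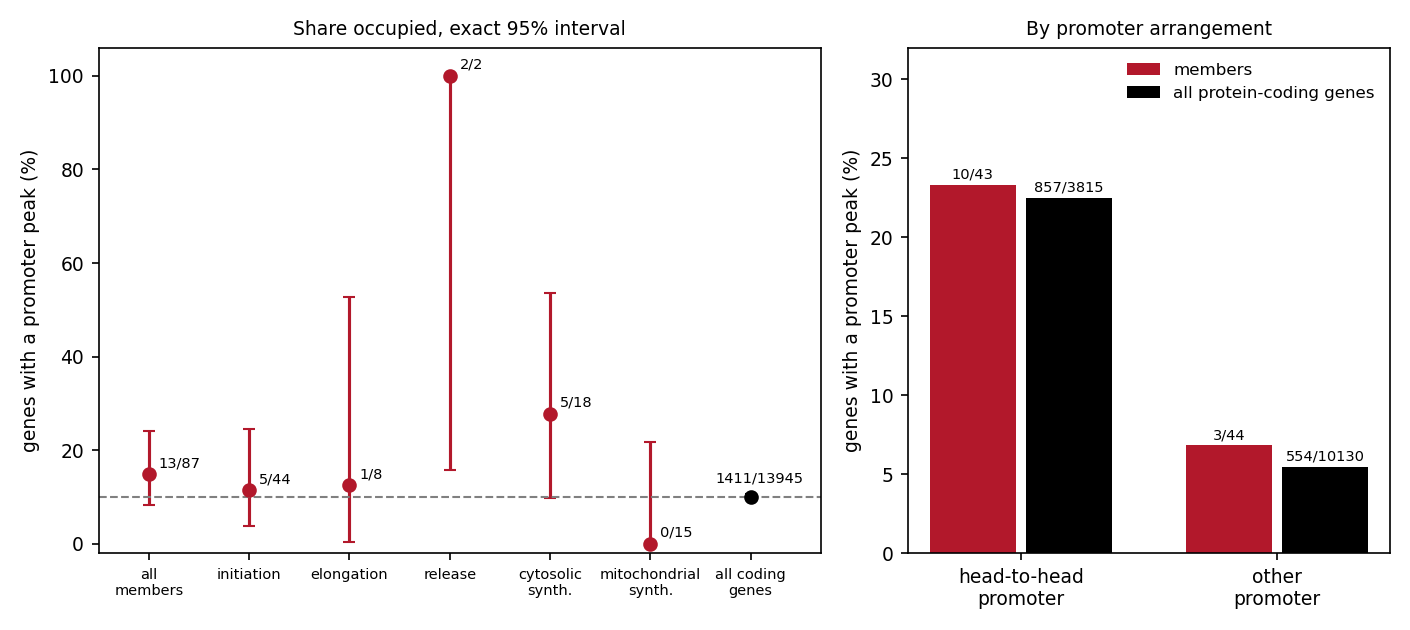
Left, percent of genes with a reproducible promoter peak in each group of members and in all protein-coding genes (dashed line, 10.1%), with exact binomial 95% intervals and the counts above the points. Right, the same percent for head-to-head and other promoters, in members (red) and in all protein-coding genes (black): 23.3% of the members with a head-to-head promoter were occupied, against 6.82% of the other members.

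Candidate regions of any strength were at 52 of the 87 members (59.8%, exact interval 48.7 to 70.1%), beside 46.5% of all protein-coding genes. Their median signal was 33.1, against 28.8 over all protein-coding genes with a candidate. Of the 52 members with a candidate, 25.0% had an IDR peak, against 21.8% of all protein-coding genes with a candidate. The share was 41.7% for cytosolic synthetases. Among the occupied genes, the median signal was 96.5 in members and 81.8 over all protein-coding genes.

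The 2 libraries ordered the occupied members in much the same way. Of the 13, 12 had a region in both replicate lists, with a Spearman correlation of ranks across those 12 genes of 0.94, beside 0.62 across 1393 occupied protein-coding genes. For the members with a candidate that is not a peak it was 0.32 across 20 genes. These are descriptions across genes that share the same 2 libraries. The occupied genes are those at the strongest regions of the list called on both libraries together. The median rank of the occupied members was 452 in replicate 2 and 550 in replicate 4, against 890 and 868 for all occupied protein-coding genes.

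The largest shifts towards replicate 2 were at eRF1, eIF4EHP and eIF3h, with log2 ratios of the rank in replicate 2 to that in replicate 4 of -1.26, -0.86 and -0.74. Those towards replicate 4 were at AspRS (1.21), IleRS (0.43) and ThrRS (0.31). The strongest summit of eIF1, at rank 377 in replicate 4 and in no region of replicate 2, has no ratio and was left out. In replicate 4 alone, the 1872 strongest regions reached the promoters of 13 members, beside 9.91% of all protein-coding genes, and in replicate 2 alone 13 members, beside 9.88%. The members were not the same ones. Replicate 4 alone placed eIF3d1 and eIF5B on the list and left off eIF3h and eRF3, while replicate 2 alone placed eIF4A on it and left off AspRS.

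**Figure D3:**
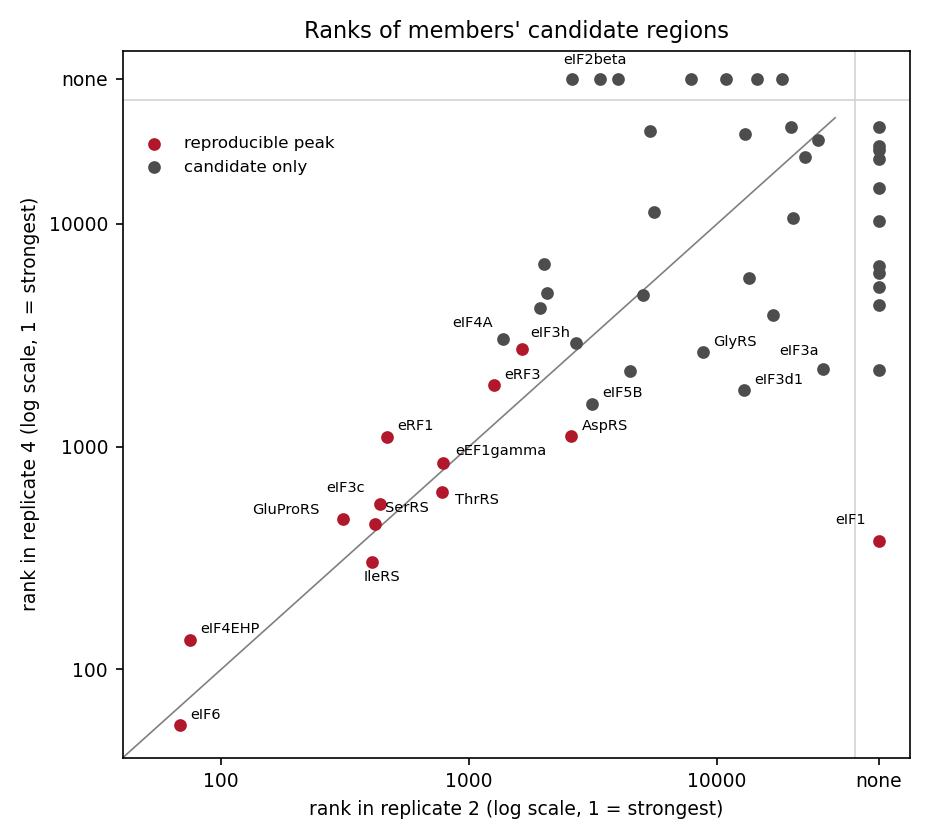
Rank of each member's strongest candidate region in the list of replicate 2 (x axis) and of replicate 4 (y axis), both on log scales with 1 as the strongest and with candidates absent from 1 list placed at "none" (the 1 absent from both is not drawn). Reproducible peaks (red) run along the line of equal rank from eIF6 at 68 and 56 upward, with eRF1 (465 and 1110) and AspRS (2582 and 1116) farthest from it. The strongest summit of eIF1 lies in no region of replicate 2 and is placed at "none". Candidates that are not peaks (grey) scatter widely.

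Most occupied members shared their peak with a neighbour. For 11 of the 13 the same summit lay within 500 bp of the TSS of another protein-coding gene (84.6%), against 64.3% of all occupied protein-coding genes, and eEF1gamma and eIF6 were the exceptions. A head-to-head promoter was taken as one with a protein-coding TSS on the opposite strand no more than 500 bp upstream. Such promoters made up 49.4% of the members (43 of 87), against 27.4% of all protein-coding genes, and 77.8% of the cytosolic synthetases (14 of 18). ChIP-seq does not tell which of the genes on either side a shared peak belongs to.

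Occupied genes were counted for each arrangement. Of the 43 members with a head-to-head promoter, 10 were occupied (23.3%), beside 22.5% of all such promoters. Of the other 44 members, 3 were occupied (6.82%), beside 5.47% of all other promoters. In each class the members' share was near that of all protein-coding genes, and the difference was not tested. All 5 occupied cytosolic synthetases were head-to-head genes, 5 of 14. Of the 7 mitochondrial synthetase genes with a head-to-head promoter, 0 were occupied.

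The summits lay upstream of the TSS at 12 of the 13 occupied members (92.3%), with a median of 110 bp upstream, against 91.6% and a median of 150 bp upstream over all occupied protein-coding genes. At members with a candidate that is not a peak, 30 of 39 lay upstream (76.9%). The summit was intergenic at 8 of the 13 occupied members and inside an annotated gene at 5. By arm, 4 of 12 members on 2L were occupied, beside 287 of 2657 protein-coding genes there, and 3 of 21 on 2R, beside 241 of 2852. On 3L it was 3 of 22 members, beside 323 of 2739 protein-coding genes, and on 3R 3 of 21, beside 382 of 3421. On X, 0 of 10 members were occupied, beside 175 of 2196 protein-coding genes, and the 1 member on the arm 4 was not occupied.

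**Figure D4:**
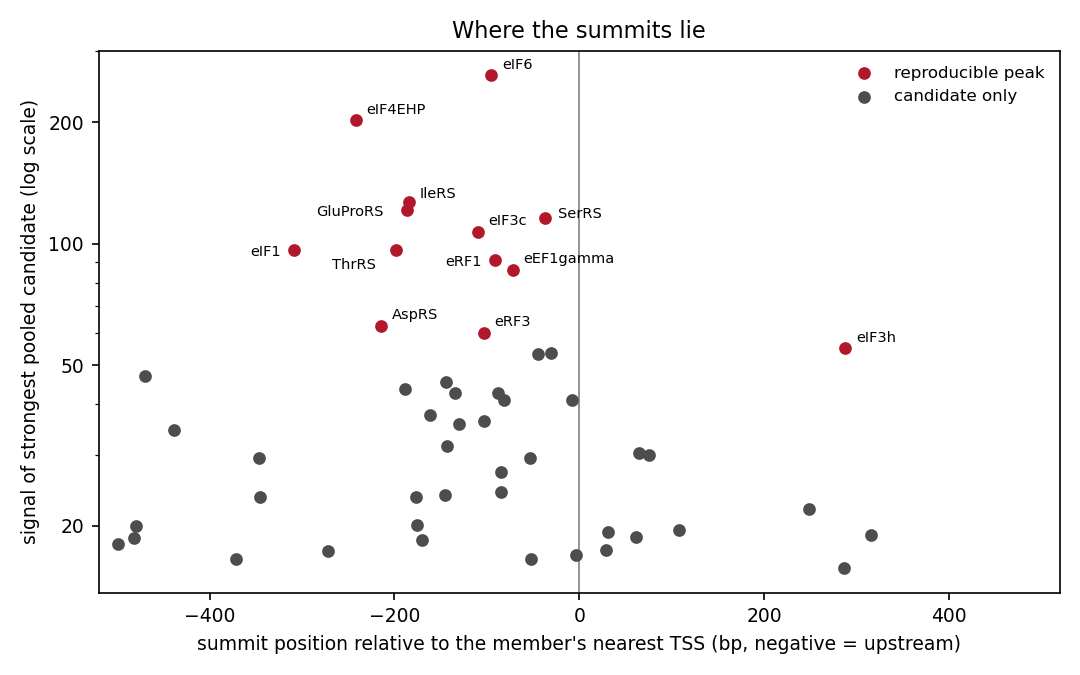
Distance in bp from the summit of each member's strongest candidate to the nearest TSS of that member (x axis, negative is upstream in the direction of transcription) and its pooled signal (y axis, log scale). Of the 13 reproducible peaks (red), 12 lie upstream, between 37 and 309 bp, and eIF3h lies 288 bp downstream; the other candidates (grey) spread over the whole window.

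The low GC content seen in the printed sequences held for most occupied members. In the 50 bp to each side of the summit the median GC content was 32.7% at the 13 occupied members, with a range of 16.8 to 48.5%, against 42.1% in flanks 300 bp to each side. The summit was lower than its flanks at 12 of 13, the exception being eIF1, with 48.5% at the summit and 36.6% in the flanks. The same figures over the 944 IDR peaks of all protein-coding promoters were 30.7%, 44.6% and 82.7% of peaks lower than their flanks. At the 39 members with a candidate that is not a peak, the median was 40.6%, and 22 were lower than their flanks. The lowest summits were those of eRF3 (16.8%) and eIF4EHP (17.8%).

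**Figure D5:**
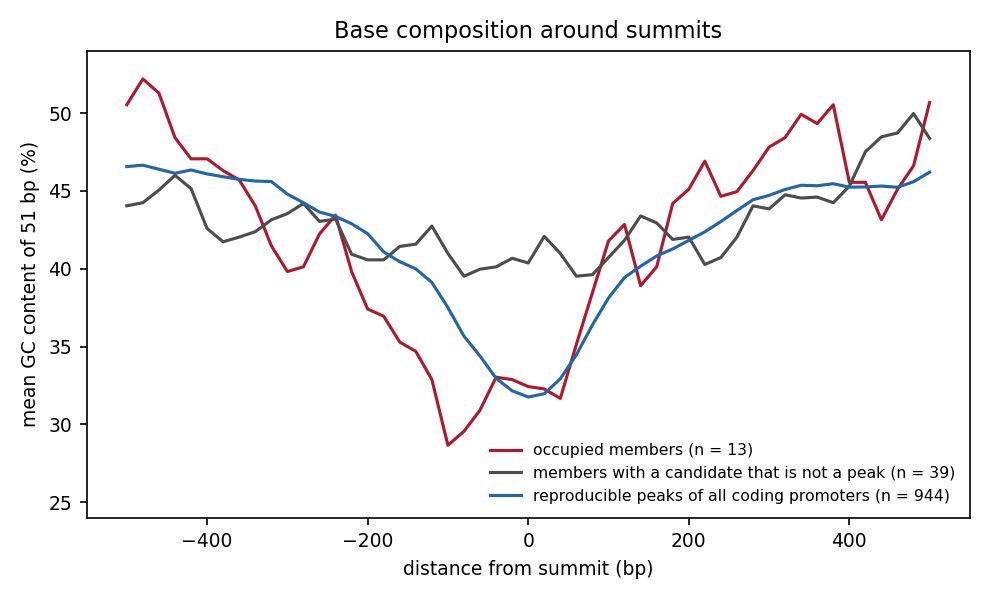
Mean GC content (%) of 51 bp windows around the summit, by distance from it in bp along the genome, for the 13 occupied members, the 39 members with a candidate that is not a peak and the 944 reproducible peaks of all protein-coding promoters. At the summit the means are 32.4%, 40.4% and 31.8% in that order, and the line of the occupied members is lowest, at 28.7%, 100 bp to one side.

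The promoters were searched for 5 motifs of promoter-bound factors and start sites. They were sought on both strands, unless stated otherwise, from 250 bp before to 50 bp after each TSS. TATCGATA, the DNA replication-related element bound by Dref, was in 22 of 87 members (25.3%), against 10.2% of all protein-coding genes. It was in 6 of the 13 occupied members (46.2%), namely AspRS, eIF3c, eIF6, eRF1, IleRS and eEF1gamma, against 15.0% of all occupied protein-coding genes. By group it was in 13 of 44 initiation factor genes, 5 of 18 cytosolic and 1 of 15 mitochondrial synthetase genes. In the 50 bp to each side of the summit it was in 2 of the 13, against 2.33% of the IDR peaks of all protein-coding promoters. These include eIF1, whose printed summit sequence holds TATCGATA upstream of the promoter window searched, so that eIF1 is not among the 6.

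The E-box CAGCTG was in 9 of 18 cytosolic and 8 of 15 mitochondrial synthetase genes, together 51.5% of synthetases, against 22.3% of all protein-coding genes. In initiation factor genes it was in 5 of 44 (11.4%). It was within 50 bp of the summit at 0 of the 52 members with a candidate. The share was 5.32% of the 5094 candidate regions at protein-coding promoters, counted by region and not by gene. With 52 genes such a low share is hard to tell from 0. GGTCACAC, the core of the motif bound by M1BP, was in 13 of 87 members (14.9%), against 8.71% of all protein-coding genes, and in 0 of the 13 occupied members, against 11.8% of all occupied protein-coding genes. With 13 genes a share of that size is hard to tell from 0. GAGAG, the core bound by GAGA factor, was in 26.4% of members, against 36.3% of all protein-coding genes. None of these motifs contains another, and a match is a description of letters and not of binding.

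The TCT initiator, at which many ribosomal protein genes and other genes of the translation machinery begin, was searched as CTTT on the strand of the gene, starting within 2 bases of a TSS. It was in 4 of 87 members (4.60%), against 3.28% of all protein-coding genes, and 3 of the 4 were cytosolic synthetases. They are shown as 30 bases around the TSS on the strand of the gene, with the matched letters in capitals, because SerRS is the only occupied member among them. The SerRS match is at the TSS at 2L:3037263, which is not the SerRS TSS 37 bp from the peak summit.
SerRS (2L:3037249-3037278, minus strand): cacttaccaccatcgCTTTccagcactgcc
TyrRS (3L:16419288-16419317, minus strand): gcatttgcgttcttcctCTTTcactttttg
LysRS (X:9608827-9608856, minus strand): cttttttttttttaCTTTtgtggcgctttc

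A list of 35 further symbols was drawn up for mitochondrial translation factors, regulators of initiation, the multisynthetase scaffold and tRNA ligation and editing. Of these, 29 were found in the annotation. A candidate was at 18 of the 29, beside 46.5% of all protein-coding genes, and a peak at 0 of 29, with an exact upper limit of 11.9% that contains the 10.1% of all protein-coding genes. Among 13 regulators of initiation, pAbp, the poly(A)-binding protein gene, came closest, with a signal of 52.6 at rank 1934. Next were Gcn2, a kinase of eIF2alpha, with 43.8, Lk6, a kinase of eIF4E, with 43.7, and crc, the fly ATF4 gene, with 43.6. Of the 9 genes listed under mitochondrial translation factors, 7 had a candidate, the strongest being mEFTu1 at 40.3. The list also took in mTerf3, which is not itself a translation factor. The 3 genes of the multisynthetase scaffold, AIMP1, AIMP2 and AIMP3, had no candidate. Among 4 genes listed under tRNA ligation and editing, a loose list that also held Nfs1, Archease had a candidate at 49.3.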

How the data were processed

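The authors deposited peak lists in narrowPeak format on dm6: 1 list of 30000 regions for each replicate, a pooled list and a list of IDR peaks. Per the deposited read-me files, they were made from alignments of the replicates and a control. The signal of each region is the enrichment the authors deposited, on a scale that is not stated. For the aligner, the peak caller and the threshold of IDR the sources used here give no name or value. Depth is unknown, and read counts give no error here. The replicates name different protocol documents, so batch and replicate cannot be told apart, and the lists do not show whether they came from separate collections of embryos. The dm3 lists and the control library were not used here.

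Members were matched by symbol in Ensembl release 115 (same assembly as dm6). Each gene was given its strongest pooled candidate with a summit within 500 bp of any TSS, and a replicate's rank where a region of that replicate contained the summit. GC content and motifs were read from the dm6 genome of NCBI. Python 3.11.15, pandas 2.3.3, numpy 2.4.6 and scipy 1.17.1 were used, with exact Clopper-Pearson 95% intervals. No hypothesis was tested, as there is 1 group. The assignment of summits to genes was tested on simulated data.

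The members, lists and motifs were chosen with earlier results of these data known. The genes named are all occupied members, the 5 strongest members without a peak, the occupied members most shifted in rank between replicates, up to 2 further examples a group and members with no candidate. Additional names (eEF2, eEF1alpha2, eEF5, eIF3a, the PheRS genes and members gained or lost under an alternative) were chosen after their values were seen. The alternatives tried were windows of 250 and 1000 bp, the 936 strongest peaks, each replicate alone, any overlap, other choices of TSS, the nearest TSS only, the candidate nearest to a TSS, another overlap for replicate matches, and motifs around the summit.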

Additional observations from a re-analysis of the deposited data

How the results depend on the processing

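The count of 13 occupied members was 10 to 15 under every alternative except 1. When each peak was given only to the gene with the nearest TSS, 8 members remained occupied (initiation factors 3, cytosolic synthetases 2), beside 966 protein-coding genes (6.93%). The genes lost were AspRS, GluProRS, SerRS, eIF4EHP and eIF6, whose summits lie nearer to a neighbour's TSS. With the 936 strongest peaks there were 10 members, without AspRS, eIF3h and eRF3, so that 1 release factor was left, beside 769 protein-coding genes (5.51%). A window of 1000 bp added eIF2Bbeta and LeuRS-m, giving 15 members (17.2%) and 1 mitochondrial synthetase, beside 11.5% of all protein-coding genes. One of 250 bp lost eIF3h, giving 12 members (13.8%), beside 7.86% of all protein-coding genes. Taking only the gene's 5′ end as TSS lost AspRS and eIF3h, giving 11 members (12.6%), beside 8.90% of all protein-coding genes. Leaving out either replicate gave 13 to 13 members, 6 to 6 initiation factors, 1 to 1 elongation factors, 1 to 2 release factors, 4 to 5 cytosolic and 0 to 0 mitochondrial synthetases, beside 1378 to 1382 protein-coding genes. Around the summit, in place of the promoter, the motifs were in 7.69% (TATCGATA), 3.85% (GGTCACAC), 1.92% (GAGAG) and 0% (CAGCTG) of members with a candidate, in the 50 bp to each side of the summit against a promoter window of 300 bp. Over the 5094 candidate regions at protein-coding promoters, counted by region, the shares around the summit were 2.59%, 1.86%, 10.5% and 5.32% in that order. With the candidate nearest to a TSS, signals were lower at eIF1 (60.3), eIF3c (28.1), eIF3h (26.8), ThrRS (17.3), ValRS (34.1), GlyRS (27.7) and eEF1alpha1 (31.5). No paired analysis was possible because there is 1 group and no comparison between conditions. Unknown depth limits what a missing candidate means.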

Other observations

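Some IDR peaks lay near members but outside the promoter window of 500 bp. The strongest peak of the genome (X:2703716-2704050, signal 771, rank 1 in the pooled list and in both replicates) lay 692 bp upstream of eIF2Bbeta, whose product is a subunit of the exchange factor of eIF2, and at the promoter of Ugalt. A peak at 3L:4824968-4825098 lay 839 bp upstream of LeuRS-m, the mitochondrial leucine enzyme gene, and at no other gene's promoter. It had a signal of 141 at rank 244, and ranked 217 in replicate 2 and 287 in replicate 4, which is stronger than any candidate at a mitochondrial synthetase promoter. Inside eIF5B, 27806 bp downstream of the nearest TSS of the gene, a peak at 3L:3432599-3432994 had a signal of 70.1 at rank 1170 and ranked 1071 in replicate 2 and 1260 in replicate 4.

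Some candidates below the peak threshold stood much higher in 1 library than in the other. That of eIF3a, the large scaffold subunit of eIF3, had a pooled signal of 40.9 and ranked 26885 in replicate 2 and 2226 in replicate 4. The pooled candidate of eIF3d1, a cap-binding subunit of eIF3 in human cells, had a signal of 36.4 and ranked 12810 in replicate 2 and 1787 in replicate 4.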
